A study of Sus scrofa with 2 samples.

Results

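The motile cilium structural genes described here are 65 of the 25880 rows of the count tables. Their symbols begin with DNAH, DNAI, DNAL, DNAAF, CFAP, RSPH or TEKT, or are SPAG6, SPAG16, SPAG17, HYDIN or TMEM212, and each had at least 20 UMIs (unique molecular identifiers, 1 per captured transcript) over both tables. In all 66 rows matched the symbols. The member with the fewest UMIs was DNAI1 with 34, and TEKT5 with 11 UMIs fell outside. The nuclei were isolated from frozen sections of the olfactory neuroepithelium of pigs (Sus scrofa) at the newborn stage. The CFTR knock out piglet (KO) gave 1 library and the wild type piglet (WT) gave 1. CFTR is the anion channel that is lost in cystic fibrosis. With 1 library per genotype nothing was tested, and every interval below is a 95% interval of counting error only. Levels are CPM, a gene's UMIs scaled to a total of 1e+06 UMIs in the nuclei in question.

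A motile cilium is built on a ring of microtubule doublets around a central pair. Outer and inner dynein arms on the doublets make the force, radial spokes and the central apparatus regulate it, and assembly factors fold the dyneins in the cytoplasm before they enter the cilium. Multiciliated cells of the respiratory lining beat such cilia to move mucus. Mature olfactory sensory neurons also carry a tuft of cilia, which hold the odorant receptors and do not beat in mammals.

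After filtering there were 5761 KO nuclei (median depth 2093 UMIs) and 4536 WT nuclei (median depth 2966 UMIs). CFTR itself stood at 12.7 CPM in the KO library, against 88.9 CPM in the WT library. The libraries shared 8 cell barcodes. Nuclei were clustered without the 65 genes, so no class below was defined by them, and classes carry "-like" because they were named from markers. The ciliated-like class held 460 KO nuclei and only 31 WT nuclei (2329142 and 179056 UMIs), so that values in WT ciliated-like nuclei are the least precise. The 18 ciliated markers in the tables, none a member, summed to 4222 CPM in KO ciliated-like nuclei and 5205 CPM in WT ones. These markers were not confined to that class. They summed to 1587 CPM in mature and 1569 CPM in immature neuron-like nuclei of the KO library, and to 1545 and 1056 CPM in the WT library. CNGA2, an olfactory transduction channel, had 6.44 CPM in ciliated-like and 35.0 CPM in mature neuron-like nuclei of the KO library, and 16.8 and 69.2 CPM in the WT library. Glia-like nuclei, which should lack motile cilia, had 558 CPM of the ciliated markers in the KO library and 273 CPM in the WT library. The olfactory neuron-like nuclei (1496 KO, 1795 WT) join a mature and an immature class, and "other" nuclei (2766 KO, 2431 WT) are those of all remaining classes, of which cluster 0 goes by its number because its leading genes did not bear out a secretory name. Clusters 1, 19 and 23 were left out of these sets, and are counted only where values over all nuclei are given.

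The 65 genes together followed the same order over ciliated and neuronal classes in both libraries. Their summed level was 28354 CPM (28138 to 28571) in KO ciliated-like nuclei and 32040 CPM (31217 to 32880) in WT ones, or 2.84% and 3.20% of all UMIs there. Mature neuron-like nuclei came next with 10487 CPM in KO and 9660 CPM in WT nuclei. Immature neuron-like nuclei had 5240 CPM in KO and 4101 CPM in WT, and precursor-like nuclei 3423 CPM in KO and 2801 CPM in WT. The intervals of these classes did not overlap in either library. Among the remaining named classes the KO library ran from 1573 CPM in glia-like nuclei to 2149 CPM in cartilage-like nuclei, and cluster 0 stood at 2460 CPM. In the WT library fibroblast-like nuclei were lowest with 992 CPM, and macrophage-like nuclei stood apart at 2970 CPM. The 13 mature neuron markers reached 2759 CPM in those WT macrophage-like nuclei, against 1263 CPM in WT glia-like nuclei, and the median WT macrophage-like nucleus had 2 member UMIs beside a mean of 11.4. Their part in the result was not tested.

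**Figure D1:**
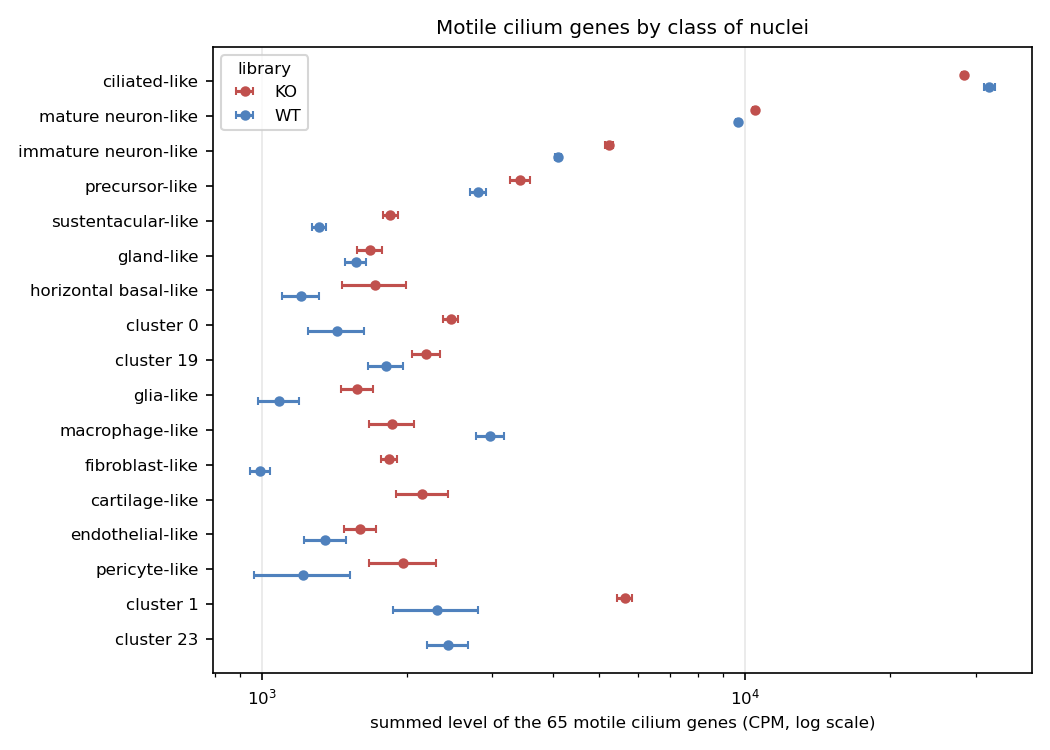
Summed level of the 65 genes in CPM (log scale) for each class, with KO (red) above WT (blue), and exact Poisson 95% intervals as bars. Classes with fewer than 20 nuclei in a library are not drawn. Ciliated-like nuclei lie at 28354 (KO) and 32040 CPM (WT), mature neuron-like nuclei at 10487 and 9660 CPM, and cluster 1, a shallow cluster outside the comparisons between classes, at 5638 CPM in the KO library.

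The member UMIs came from different cells in the 2 libraries, which differed in the size of the ciliated-like class. Ciliated-like nuclei were 7.98% of KO nuclei (7.30 to 8.71) and gave 52.7% of all member UMIs there, while they were 0.683% of WT nuclei (0.465 to 0.969) and gave 7.33%. Olfactory neuron-like nuclei gave 32.7% of member UMIs in the KO library and 76.4% in the WT library. Those nuclei also held 4907044 of the 15125185 UMIs of all genes in the KO library, and 8655334 of 17128569 in the WT library. Most transcripts of motile cilium genes in the WT library thus lay in neuron-like nuclei, which were also a large part of that library. The summed level of the members was 8356 CPM in neuron-like and 8279 CPM in all nuclei of the KO library, and 6905 and 4567 CPM in the WT library.

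Gene by gene, the ciliated-like class stood above the neurons for most members. In the KO library 50 of 65 members were at least 2-fold higher in ciliated-like than in olfactory neuron-like nuclei, beside 25% of all 15456 genes with a ratio. In the WT library 53 of 64 were, beside 19.7% of 15790 genes, and 47 members passed in both. The share of all genes passing in both libraries was not computed, here or for the later counts in both. At least 2-fold lower were 1 member in KO (16.3% of all genes) and 0 in WT (16.7%). The median log2 ratio of the members was 1.82 in the KO library and 2.16 in the WT library, against 0.17 and 0 over all genes. Against other nuclei 56 of 65 members were 2-fold higher in KO ciliated-like nuclei (12.2% of all genes) and 56 of 64 in WT ones (14.3%). Lower there were DNAH17 alone in KO (21.1% of all genes) and 0 members in WT (21.7%). Set against mature neuron-like nuclei alone, 47 of 65 members were 2-fold higher in KO ciliated-like nuclei (26.9% of all genes) and 2 lower (15.7%), and in the WT library 50 of 64 were higher (22.3%) and 1 lower (17.2%). Among the 15 KO and 14 WT classes with at least 20 nuclei, the shallow clusters 1 and 23 left out, the ciliated-like class had the highest level for 55 members in the KO library and 53 in the WT library, beside 8.01% and 11.6% of all genes. With those clusters counted among the classes, a setting chosen after seeing the data, it was highest for 47 members in KO and 50 in WT. For that setting no share of all genes was computed. Among the same classes without clusters 1 and 23, mature neuron-like nuclei were highest for 3 members in KO (5.57% of all genes) and 4 in WT (6.94%). Across members the ciliated over neuron ratios of the 2 libraries had a Spearman correlation of 0.90 over 64 genes, which are not independent and share their library's depth.

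**Figure D2:**
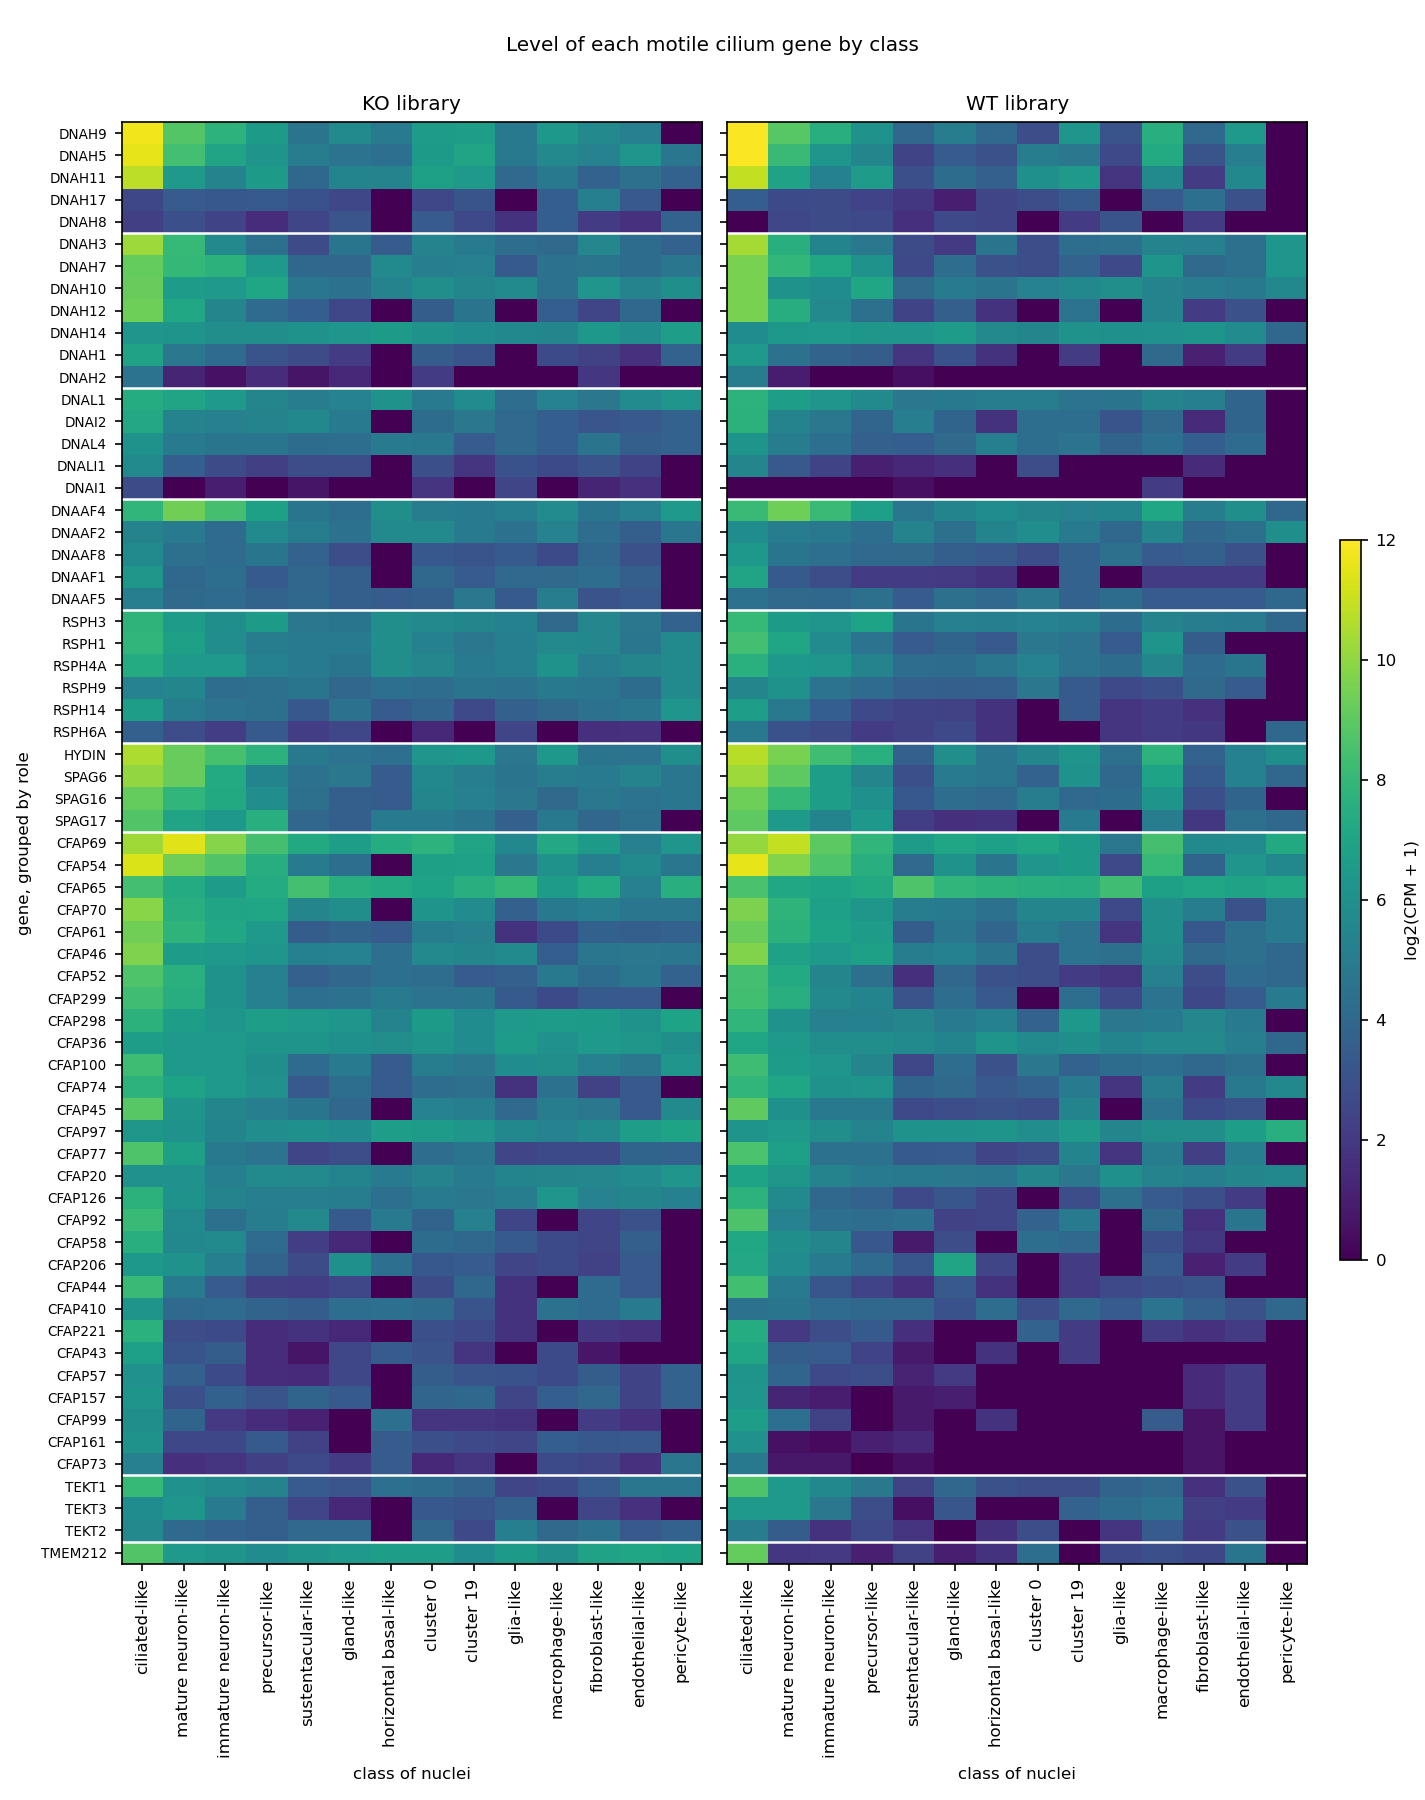
Level of each of the 65 genes (rows, grouped by role, white lines between groups) in each class (columns) as log2(CPM + 1), with the KO library left and the WT library right. The ciliated-like column is the brightest for most rows, while the rows of CFAP69 and DNAAF4 are brightest in mature neuron-like nuclei in both libraries. TMEM212 lies between 56.9 and 140 CPM over the named nonciliated classes of the KO panel and near 0 in most of those of the WT panel.

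The outer arm heavy chains, the largest motor subunits of the outer dynein arm, were 2-fold higher in ciliated-like than neuron-like nuclei for 3 of 5 genes in KO and 4 of 5 in WT, where the further gene, DNAH17, rests on 2 UMIs. DNAH9 had 3468 CPM (3393 to 3545) in KO ciliated-like nuclei, against 446 CPM in KO mature neuron-like and 49.8 CPM in KO fibroblast-like nuclei. DNAH9 in the WT library had 3893 CPM (3609 to 4193) in ciliated-like, 477 CPM in mature neuron-like and 16.2 CPM in fibroblast-like nuclei. DNAH5, mutated in primary ciliary dyskinesia, had 2987 CPM in KO ciliated-like nuclei against 339 CPM in mature neuron-like ones, and in the WT library 3859 CPM against 273 CPM. These chains thus shared a pattern of a high ciliated level and a smaller but clear neuronal one. DNAH11, a further outer arm chain, had 1765 CPM in KO ciliated-like nuclei against 84.8 CPM in mature neuron-like nuclei, and 1893 CPM against 121 CPM in the WT library. Its log2 ratio of ciliated-like over neuron-like nuclei was 4.73 (4.57 to 4.90) in the KO library and 4.57 (4.37 to 4.76) in the WT library, and in neurons over other nuclei it reached 2-fold in the WT library alone (0.67 in KO, 1.84 in WT). DNAH8 and DNAH17, best known from sperm flagella, gave few UMIs in ciliated-like nuclei, with 9 and 12 UMIs in KO ones and 0 and 2 UMIs in WT ones. A count of 0 in WT ciliated-like nuclei allows up to 16.8 CPM, the level of 3 UMIs there. DNAH17 was highest in fibroblast-like nuclei in both libraries, at 35.7 CPM in KO and 20.1 CPM in WT.

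Of the 7 inner arm and other heavy chains, 6 were at least 2-fold higher in ciliated-like than in neuron-like nuclei in each library. DNAH3 had 1208 CPM in KO ciliated-like nuclei and 259 CPM in KO mature neuron-like ones, and in the WT library 1346 CPM and 189 CPM. DNAH7 had a closer pair of levels, with 571 CPM against 257 CPM in the KO library and 776 CPM against 246 CPM in the WT library. DNAH10 stood at 590 CPM in KO and 771 CPM in WT ciliated-like nuclei. Its level in mature neuron-like nuclei was 93.7 CPM in KO and 70.1 CPM in WT. Its log2 ratio of neuron-like over other nuclei was 0.73 (0.53 to 0.93) in the KO library and 0.63 (0.42 to 0.83) in the WT library, above 0 beyond counting error but under 2-fold, where DNAH3 and DNAH7 passed 2-fold in both libraries. DNAH2 was sparse, with 53 UMIs in KO and 6 UMIs in WT ciliated-like nuclei, and had 1 of the 5 highest ciliated over neuron ratios in the KO library, 4.48 (3.17 to 6.16). DNAH14 was the exception of the group, at 75.6 CPM in ciliated-like and 72.1 CPM in mature neuron-like nuclei of the KO library, 55.8 and 82.4 CPM in the WT library, and at a like level in most other classes.

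The intermediate and light chains, smaller subunits that anchor and tune the motors, were 2-fold higher in ciliated-like than neuron-like nuclei for 4 of 5 members in KO and 4 of 4 with a ratio in WT. DNAL1, a light chain of the outer arm, had 173 CPM in KO ciliated-like and 129 CPM in KO mature neuron-like nuclei, with 212 CPM and 106 CPM in the WT library. DNAI2, an outer arm intermediate chain, had 151 CPM and 40.1 CPM in the KO library, and 207 CPM and 39.8 CPM in the WT library. DNAL4 was 1.33 (0.99 to 1.68) log2 units higher in ciliated-like than neuron-like nuclei of the KO library and 1.47 (0.54 to 2.27) in the WT library. DNAI1, the partner of DNAI2, gave only 14 UMIs in KO ciliated-like nuclei and 0 in WT ones, too few to place it by class in the WT library. DNAI1 was counted under an Ensembl identifier.

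Of the 5 assembly factors, 3 in the KO library and 2 in the WT library were 2-fold higher in ciliated-like than neuron-like nuclei, and 1 was 2-fold lower in KO. DNAAF1 had 81.1 CPM in ciliated-like and 15.4 CPM in mature neuron-like nuclei of the KO library, and 128 CPM and 9.62 CPM in the WT library. In fibroblast-like nuclei DNAAF1 had 18.9 CPM in KO and 3.35 CPM in WT. Its log2 ratio of ciliated-like over neuron-like nuclei was 2.26 in KO and 4.01 in WT, the highest of the group in each. DNAAF4 (also known as DYX1C1), a co-chaperone of dynein preassembly, had 237 CPM (217 to 257) in KO ciliated-like nuclei and 677 CPM (647 to 707) in KO mature neuron-like nuclei. The WT values were 274 CPM (202 to 362) in ciliated-like and 646 CPM (622 to 670) in mature neuron-like nuclei. Its log2 ratio of ciliated-like over neuron-like nuclei was -1.20 (-1.33 to -1.07) in the KO library, the 1 member at least 2-fold lower, and -0.76 (-1.19 to -0.35) in the WT library. Against other nuclei DNAAF4 was 2.70 log2 units higher in ciliated-like nuclei of the KO library and 2.53 in those of the WT library. DNAAF2 (39.9 CPM in KO and 55.8 CPM in WT ciliated-like nuclei) and DNAAF8 (50.7 and 83.8 CPM) were within 2-fold between neuron-like and other nuclei in both libraries. DNAAF8 was 1.40 log2 units higher in ciliated-like than neuron-like nuclei in the KO library and 1.93 in the WT library. DNAAF5 had a ratio of 1.00 in KO and 0.49 in WT, and DNAAF2 one of 0.65 and 0.86.

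Of the 6 radial spoke genes, 4 in the KO library and 5 in the WT library were 2-fold higher in ciliated-like than neuron-like nuclei. RSPH1, a spoke head protein, had 234 CPM in KO ciliated-like and 111 CPM in KO mature neuron-like nuclei, and 341 CPM and 136 CPM in the WT library. RSPH3, a spoke stalk protein, had 222 CPM and 98.8 CPM in the KO library and 262 CPM and 90.7 CPM in the WT library. RSPH4A, another spoke head protein, had 165 CPM and 87.2 CPM in the KO library and 195 CPM and 82.2 CPM in the WT library. All 3 were also at least 2-fold higher in neuron-like than in other nuclei in both libraries. RSPH9, a further spoke head protein, did not separate the 2 ciliated cell types: it had 38.6 CPM (31.1 to 47.5) in ciliated-like and 43.9 CPM (36.6 to 52.2) in mature neuron-like nuclei of the KO library, and 44.7 CPM (from 8 UMIs) and 70.5 CPM (62.9 to 78.9) in the WT library.

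The central apparatus genes were present in both cell types. HYDIN, a very large central pair protein, had 1455 CPM in ciliated-like, 589 CPM in mature neuron-like and 23.6 CPM in fibroblast-like nuclei of the KO library, and 1653, 760 and 12.8 CPM in those of the WT library. SPAG6 had 1061, 598 and 29.0 CPM in the same KO classes and 1229, 518 and 9.49 CPM in the WT ones. SPAG16 had 575, 239 and 26.9 CPM in the KO library and 653, 250 and 6.70 CPM in the WT library. All 4 members, SPAG17 included, were at least 2-fold higher in ciliated-like than neuron-like nuclei, and at least 2-fold higher in neuron-like than other nuclei, in both libraries.

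The 29 CFAP genes were grouped by symbol, not by place in the cilium. They include proteins of the central apparatus, inner arm tethers, spokes and the inside of the doublets, and others outside these. Of the 29 genes, 23 in the KO library and 25 in the WT library were 2-fold higher in ciliated-like than neuron-like nuclei. CFAP54, a central apparatus protein, had 2576 CPM in ciliated-like and 673 CPM in mature neuron-like nuclei of the KO library, and 2960 CPM and 870 CPM in the WT library. CFAP69, also of the central apparatus and known in mice for a role in olfactory cilia, ran the other way. It had 1253 CPM (1208 to 1300) in KO ciliated-like and 2831 CPM (2770 to 2892) in KO mature neuron-like nuclei. The WT values were 1083 CPM (936 to 1247) in ciliated-like and 1920 CPM (1879 to 1962) in mature neuron-like nuclei. Mature neuron-like nuclei thus had the highest CFAP69 level of those same 15 KO and 14 WT classes, 2.26 times the next class in KO and 1.77 times in WT. The shallow cluster 23, which is not among them, had 1667 CPM (1004 to 2603) from 19 UMIs in 14 KO nuclei. CFAP65 showed a different exception, with 343 CPM in ciliated-like and 341 CPM in sustentacular-like nuclei of the KO library, and 374 CPM and 408 CPM in the WT library, while mature neuron-like nuclei had 165 CPM and 143 CPM. Its level was not particular to these classes, with 253 CPM in KO and 315 CPM in WT glia-like nuclei, and 160 and 136 CPM in fibroblast-like ones.

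At the ciliated end of the CFAP group were genes with a much lower neuronal than ciliated level. CFAP221, a central apparatus protein, had 204 CPM (186 to 223) in KO ciliated-like and 6.18 CPM (3.66 to 9.76) in KO mature neuron-like nuclei, and 173 CPM (118 to 246) and 2.98 CPM (1.59 to 5.09) in the WT library. Its log2 ratio of ciliated-like over neuron-like nuclei, 5.11 in the KO library, was the highest of all members there. CFAP73, of an inner arm regulatory complex, had a log2 ratio of 4.04 (3.13 to 5.10) in the KO library and 5.33 (3.28 to 7.31) in the WT library, the WT value from 5 UMIs in ciliated-like nuclei. CFAP43 and CFAP44, which tether an inner arm dynein, had 109 and 270 CPM in KO ciliated-like nuclei, against 7.55 and 29.9 CPM in KO mature neuron-like nuclei. Their WT values were 134 and 330 CPM, against 10.8 and 29.1 CPM. Both tether genes still stood at least 2-fold higher in neuron-like than in other nuclei in both libraries, which CFAP221 did in the KO library alone (1.03, 0.16 to 1.93) and CFAP73 in the WT library alone (1.43, -1.05 to 4.77). The interval of CFAP73 includes 0, and the ratio of CFAP221 was -0.71 under separate clustering of the libraries.

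The tektins, filament proteins inside the doublets, divided into a pair higher in ciliated cells and TEKT3. TEKT1 had 261 CPM in ciliated-like and 66.9 CPM in mature neuron-like nuclei of the KO library, and 408 CPM and 86.6 CPM in the WT library. TEKT2 had 49.8 CPM and 16.1 CPM in the KO library, and 33.5 CPM and 10.5 CPM in the WT library. TEKT3 did not separate ciliated-like from neuron-like nuclei by 2-fold: it had 55.4 CPM (46.2 to 65.8) in ciliated-like and 78.9 CPM (69.1 to 89.8) in mature neuron-like nuclei of the KO library, and 89.4 CPM (51.1 to 145) and 87.5 CPM (78.9 to 96.7) in the WT library.

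The members that were at least 2-fold higher in ciliated-like than neuron-like nuclei in neither library were 9: CFAP36, CFAP69, CFAP97, DNAAF2, DNAAF4, DNAH14, DNAH8, RSPH9 and TEKT3. DNAAF4, CFAP69 and TEKT3 were at least 2-fold higher in neurons than in other nuclei in both libraries, whereas CFAP36, CFAP97, DNAAF2, DNAH14 and DNAH8 passed 2-fold between neurons and other nuclei in neither library, and RSPH9 passed in the WT library alone (1.83, 1.52 to 2.16; KO 0.59, 0.26 to 0.91).

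Neurons stood above the other nonciliated nuclei for 34 members in the KO library and 44 in the WT library. These counts are of 65 and 64 members that were at least 2-fold higher in olfactory neuron-like than in other nuclei, beside 13.6% of 16097 genes in KO and 13.9% of 16178 genes in WT, and 32 members passed in both. Lower in neurons were DNAI1 in KO (27.4% of all genes) and CFAP161 in WT (25.4%). Both rest on few UMIs, with 0 and 2 UMIs of DNAI1 in KO mature and immature neuron-like nuclei, and 2 and 1 UMIs of CFAP161 in WT ones. The median log2 ratio was 1.05 in the KO library and 1.91 in the WT library, against -0.37 and -0.28 over all genes. The neurons' summed member level was 2.04 log2 units above that of other nuclei in the KO library and 2.20 in the WT library. The summed levels behind these ratios were 8356 CPM in neuron-like and 2029 CPM in other nuclei of the KO library, and 6905 and 1499 CPM in the WT library. The highest of these ratios in the KO library were those of DNAAF4 (3.90, 3.71 to 4.09), CFAP69 (3.79, 3.70 to 3.89) and SPAG6 (3.73, 3.53 to 3.94), and in the WT library the 3 stood at 3.29, 3.42 and 3.84.

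**Figure D3:**
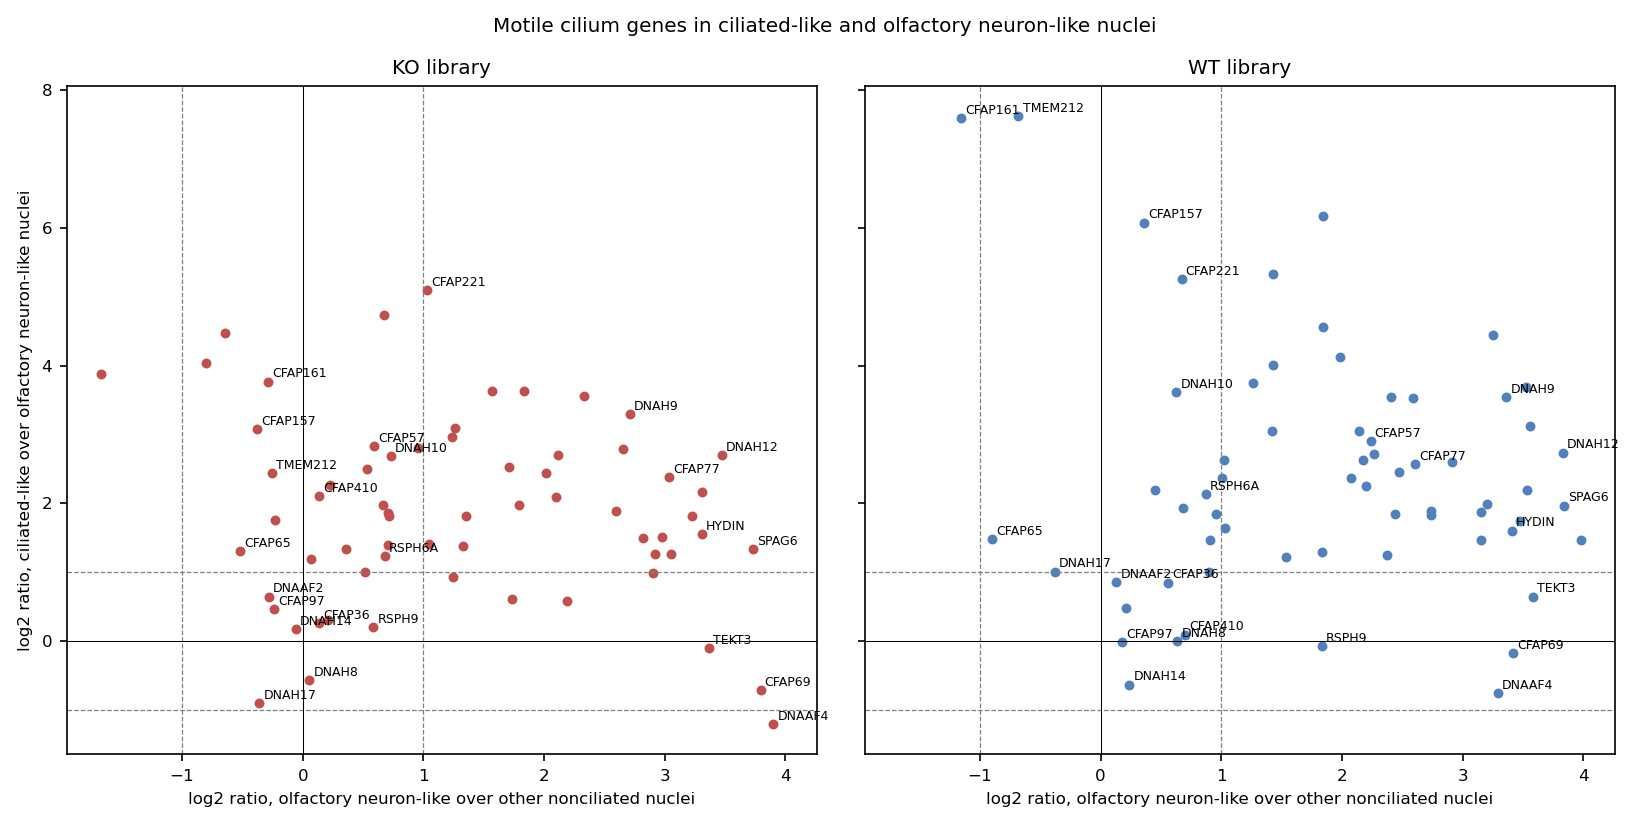
Each of the genes by its log2 ratio of olfactory neuron-like over other nonciliated nuclei (x axis) and of ciliated-like over olfactory neuron-like nuclei (y axis), with the KO library left and the WT library right, and dashed lines at 2-fold. SPAG6, HYDIN and DNAH12 lie at the upper right, above 2-fold on both axes, DNAAF4, CFAP69 and TEKT3 at the lower right, and TMEM212, CFAP161 and CFAP157 at the upper left.

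Of the 47 genes that were higher in ciliated cells in both libraries, 26 were also higher in neurons than in other nuclei in both. No share of all genes was computed for these joint calls. By those calls the 26 genes followed a graded order from ciliated-like through neuron-like to other nuclei. DNAH12, an inner arm heavy chain, is an example, with 651 CPM in ciliated-like, 139 CPM in mature neuron-like and 4.71 CPM in fibroblast-like nuclei of the KO library, and 771, 180 and 3.35 CPM in the WT library. CFAP77, which lines the doublets, had 408, 113 and 5.39 CPM in the KO library and 391, 109 and 3.91 CPM in the WT library. CFAP61, of a spoke-associated complex, had 673, 222 and 12.1 CPM in the KO library and 620, 211 and 8.93 CPM in the WT library. A further 9 genes were higher in ciliated cells in both libraries and passed 2-fold in neurons in neither: CFAP157, CFAP161, CFAP298, CFAP65, DNAAF8, DNAH10, DNAL4, RSPH6A and TMEM212. The graded genes were CFAP43, CFAP44, CFAP45, CFAP46, CFAP52, CFAP54, CFAP58, CFAP61, CFAP70, CFAP77, CFAP99, CFAP100, CFAP299, DNAH1, DNAH3, DNAH5, DNAH7, DNAH9, DNAH12, HYDIN, RSPH1, RSPH3, SPAG6, SPAG16, SPAG17 and TEKT1. The 32 genes higher in neurons in both libraries are these and CFAP69, CFAP74, DNAAF4, DNAL1, RSPH4A and TEKT3.

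Within the neuron lineage the summed level was higher at each later stage. The summed level was 3423, 5240 and 10487 CPM over precursor-like, immature and mature neuron-like nuclei of the KO library, and 2801, 4101 and 9660 CPM in the WT library. Between mature and immature neuron-like nuclei 17 of 64 members were at least 2-fold higher in the KO library (8.59% of all genes) and 27 of 62 in the WT library (7.14%), 15 of them in both. Lower were 0 members in KO (10.6% of all genes) and 1 in WT (19.1%). The 15 higher in both were CFAP44, CFAP52, CFAP57, CFAP69, CFAP77, CFAP99, CFAP299, DNAH3, DNAH5, DNAH9, DNAH11, DNAH12, RSPH9, SPAG6 and TEKT3. Between immature and precursor-like nuclei 21 of 63 members were 2-fold higher and 4 lower in KO (11.1% and 19% of all genes), and 15 of 61 higher and 4 lower in WT (10.2% and 12.9%). Each step of precursor, immature and mature was upward, by any amount, for 36 members in the KO library and 44 in the WT library. How many of all genes rise in this way was not computed, so these counts have no share beside them. SPAG6 showed the steepest of the examples, with 41.7, 159 and 598 CPM over the 3 stages in the KO library and 42.9, 106 and 518 CPM in the WT library. CFAP69 had 351, 897 and 2831 CPM in the KO library and 234, 505 and 1920 CPM in the WT library. DNAAF4 had 112, 348 and 677 CPM in the KO library and 108, 276 and 646 CPM in the WT library. These genes were higher at each later stage, whereas SPAG17 and DNAH10 were not: SPAG17 had 190, 83.8 and 127 CPM in the KO library and 83.7, 41.3 and 85.4 CPM in the WT library, and DNAH10 had 135, 88.3 and 93.7 CPM in the KO library and 135, 55.7 and 70.1 CPM in the WT library. In both of these genes precursor-like nuclei stood above immature ones in each library. CFAP221 alone was 2-fold lower in mature than immature neurons, and only in the WT library (-1.03), at levels of 2.98 and 6.06 CPM.

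**Figure D4:**
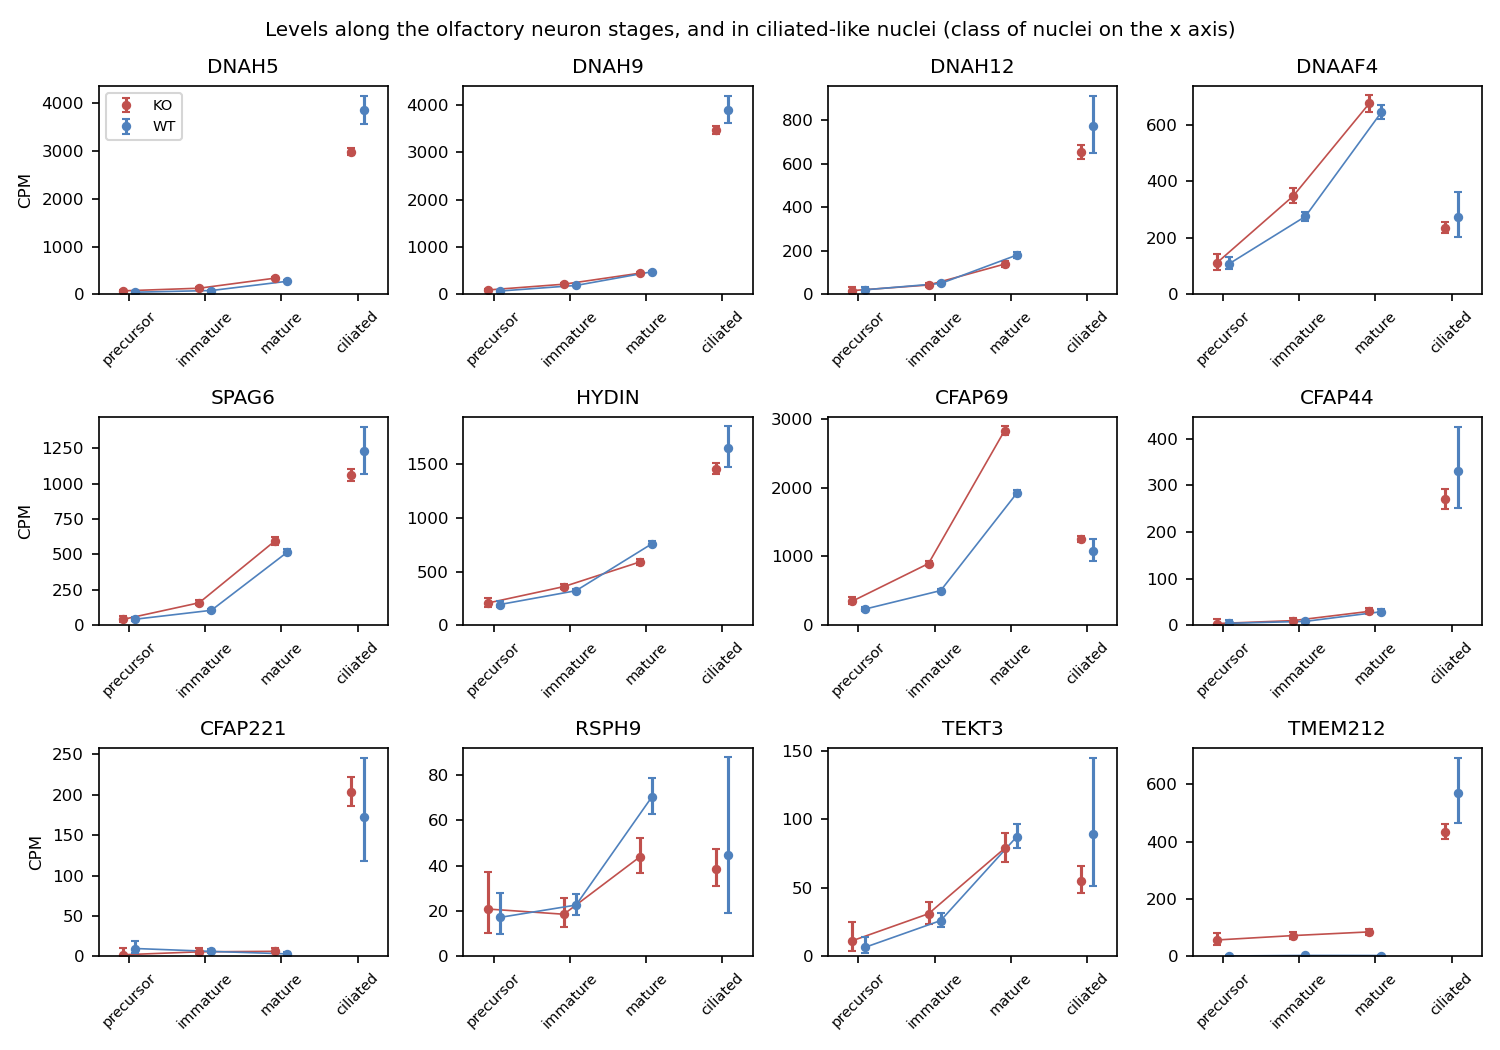
Level in CPM of 12 of the genes in precursor-like, immature and mature neuron-like nuclei (joined by lines) and in ciliated-like nuclei, with KO in red left of WT in blue, Poisson 95% intervals as bars, and a y axis of its own from 0 for each gene. CFAP69 and DNAAF4 are highest at the mature stage, SPAG6 and HYDIN climb over the stages to a ciliated level above them, and CFAP221 and TMEM212 stay low or flat over the stages.

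Single nuclei gave the same picture once depth was made equal. Each nucleus was thinned to 1000 UMIs, which left out 3 ciliated-like, 37 mature and 36 immature neuron-like nuclei in the KO library, and 0, 23 and 18 in the WT library. The median number of member UMIs was then 29 in KO and 28 in WT ciliated-like nuclei, 10 and 9 in mature neuron-like, 5 and 4 in immature neuron-like and 1 and 1 in glia-like nuclei. Before thinning the medians were 108 and 149 in ciliated-like nuclei and 29 and 36 in mature neuron-like nuclei. Neurons were not a mix of a few very high and many empty nuclei: every one of 885 KO and 987 WT thinned mature neuron-like nuclei had a member UMI, and the 10th percentile was 5 UMIs in both libraries. A member UMI was also common elsewhere, in 82.7% of KO and 66.4% of WT glia-like nuclei, and in 83.2% and 62.4% of fibroblast-like ones. Before thinning, CFAP69 alone gave 8249 of the 30562 member UMIs of KO mature neuron-like nuclei, and 8384 of 42183 in WT ones. CFAP69 had a UMI in 90.2% of KO and 77.7% of WT mature neuron-like nuclei, against 4.76% and 4.20% of glia-like nuclei. DNAH9 had one in 91.5% of KO and 96.8% of WT ciliated-like nuclei, in 33.2% and 36.2% of mature neuron-like nuclei, and in 3.57% of KO glia-like nuclei.

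TMEM212, a predicted membrane protein, was counted in every nonciliated class of the KO library. It had 434 CPM (407 to 461) in KO and 570 CPM (464 to 692) in WT ciliated-like nuclei. In KO nuclei it then lay between 56.9 and 140 CPM in every named nonciliated class, with 85.1 CPM in mature neuron-like and 121 CPM in fibroblast-like nuclei. The shallow clusters of the KO library were higher, with 541 CPM (482 to 604) in cluster 1 and 351 CPM (95.6 to 899) in cluster 23, which rests on 4 UMIs. In WT nuclei mature neuron-like ones had 2.75 CPM and fibroblast-like ones 5.02 CPM. After thinning, 9.38% of KO mature neuron-like and 8.93% of KO glia-like nuclei had a TMEM212 UMI, against 0.203% of WT mature neuron-like nuclei. No neuronal expression of TMEM212 is read from these shares.

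Between the libraries, the genes were higher in KO over all nuclei, where the ciliated share differed. Their summed level over all nuclei was 8279 CPM in the KO library and 4567 CPM in the WT library. At least 2-fold higher in the KO library were 29 of 65 members, beside 6.96% of all genes, and 0 were 2-fold lower, beside 3.14%. All nuclei here include clusters 1, 19 and 23. Without them, a setting chosen after seeing the data, 30 members were higher. The median log2 ratio of KO over WT was 0.81, against 0.10 over all genes. TMEM212 was 4.05 log2 units higher (3.82 to 4.29). DNAH5 was 2.06 log2 units higher (1.99 to 2.12), DNAH9 1.60 (1.55 to 1.65), HYDIN 0.39 (0.34 to 0.45) and CFAP69 0.45 (0.42 to 0.49).

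Within ciliated-like nuclei the genes were not higher in KO. Their summed level was 28354 CPM in KO and 32040 CPM in WT nuclei, and the median log2 ratio was -0.18, against 0.02 over all genes. Only CFAP410 was 2-fold higher (1.69, 0.31 to 3.58, with 168 UMIs in KO and 4 in WT), beside 13.5% of all genes, and RSPH6A and DNAH17 were 2-fold lower (-1.22, -2.61 to 0.51, and -1.12, -3.28 to 2.09), beside 6.86%. The intervals of RSPH6A and DNAH17 include 0, and the WT values rest on 5 and 2 UMIs. For 14 members the counting interval lay below 0 and for 2 above it. Such intervals were not counted over all genes, so these counts have no share beside them. Secretory markers (8 in the tables) summed to 1455 CPM in KO and 592 CPM in WT ciliated-like nuclei. The same markers summed to 1360 CPM in KO and 189 CPM in WT fibroblast-like nuclei, and to 1076 and 169 CPM in glia-like nuclei. Their part in the result was not tested.

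Within olfactory neuron-like nuclei 7 members were at least 2-fold higher in KO, beside 4.81% of all genes, and 0 were 2-fold lower, beside 8.16%. These were CFAP157, CFAP161, CFAP73, DNAAF1, DNAH2, TEKT2 and TMEM212. All 7 were also at least 2-fold higher in KO within the other nonciliated nuclei, where 21 members were (6% of all genes, with 0 members and 4.52% of genes lower), and none of the 7 was higher in neurons than in those other nuclei of the KO library beyond its counting interval. CFAP161, for example, was 3.88 log2 units higher in KO neurons (2.17 to 6.25) and 3.01 in KO other nuclei (1.77 to 4.53), and DNAAF1 was 1.09 (0.61 to 1.57) and 2.29 (1.62 to 3.01). Within mature neuron-like nuclei alone 5 members were higher in KO (8.21% of all genes) and 0 lower (6.06%), and within immature ones 10 were higher (5.03%) and 0 lower (11.4%). The median log2 ratio over all members in neurons was 0.20, against 0.01 over all genes. CFAP69 was 0.75 log2 units higher in KO neurons (0.71 to 0.79) and HYDIN was 0.13 lower (-0.13, -0.20 to -0.06). HYDIN went opposite ways in the 2 neuron classes. In mature neuron-like nuclei it had 589 CPM (562 to 618) in KO and 760 CPM (734 to 786) in WT. In immature ones it had 360 CPM (334 to 387) in KO and 322 CPM (305 to 339) in WT, with intervals that overlap. CFAP69 was higher in KO in both classes (2831 against 1920 CPM, and 897 against 505 CPM). The mature class was split unevenly over its clusters, with 828 KO and 186 WT nuclei in cluster 4 and 94 KO and 824 WT nuclei in cluster 3, so that differences within neurons join genotype, library and cluster. These cannot be told apart with 1 library each.

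**Figure D5:**
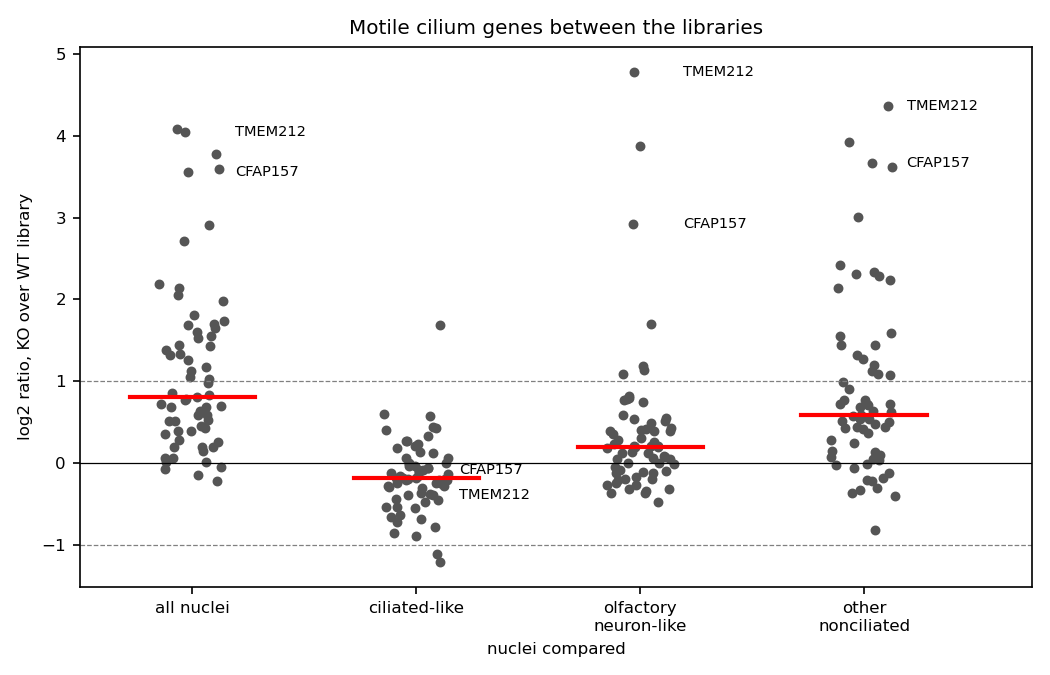
Log2 ratio of the KO over the WT library for each of the genes (points) over all nuclei and within ciliated-like, olfactory neuron-like and other nonciliated nuclei, with red bars at the medians and dashed lines at 2-fold. The medians are 0.81 over all nuclei, -0.18 within ciliated-like, 0.20 within neuron-like and 0.59 within other nuclei, and TMEM212 is the highest point in the last 2 sets.

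Lists of other cilium genes, chosen by function, were set beside the members. Some of them, such as FOXJ1, DRC1, CCDC39, ARMC3 and IQCG, were among the markers that named the ciliated-like class, and all could take part in the clustering, so their ciliated levels are a description. The counts below stand beside 25% of all genes in KO and 19.7% in WT that were 2-fold higher in ciliated-like than neuron-like nuclei, and 13.6% and 13.9% that were 2-fold higher in neuron-like than other nuclei. Of the nexin-dynein regulatory complex, which links neighbouring doublets, 8 of 9 genes in the KO library and 9 of 9 in the WT library were 2-fold higher in ciliated-like than neuron-like nuclei, and 3 and 7 were 2-fold higher in neuron-like than other nuclei. Of the docking complex and ruler proteins, which place the dynein arms, all 7 in the KO library and 6 in the WT library were 2-fold higher in neurons than in other nuclei. CCDC39, a ruler protein, was 0.36 log2 units lower in ciliated-like than neuron-like nuclei of the KO library (-0.36) and 0.38 higher in the WT library. CCDC114, of the docking complex, was 4.52 higher in KO and 5.32 in WT. Of 17 further central apparatus and doublet proteins, 13 in KO and 15 in WT were 2-fold higher in neurons than in other nuclei. Of 23 intraflagellar transport genes, which all cilia need, 6 in KO, near the share of all genes, and 9 in WT were 2-fold higher in ciliated-like than neuron-like nuclei, and 13 and 12 were 2-fold higher in neurons than in other nuclei. Of dynein preassembly factors outside the members, 7 and 9 of 9 were higher in ciliated-like than neuron-like nuclei, and 1 and 5 in neurons than in other nuclei.

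The regulators of multiciliation, transcription and centriole factors that set up many cilia per cell, were mostly higher in ciliated-like nuclei. Of 9 with a ratio, 7 in KO and 8 in WT were 2-fold higher in ciliated-like than neuron-like nuclei, and 2 and 3 in neurons than in other nuclei. FOXJ1, the master factor of motile cilia, had 105 CPM in ciliated-like and 20.9 CPM in mature neuron-like nuclei of the KO library, and 156 CPM and 8.70 CPM in the WT library. Fibroblast-like nuclei had 34.3 CPM of FOXJ1 in KO and 3.91 CPM in WT. RFX3, which also acts in non-motile ciliogenesis, had 1937 CPM and 1263 CPM in the KO library, and 3010 CPM and 1476 CPM in the WT library. RFX2 had 828 CPM and 314 CPM in the KO library, and 1435 CPM and 369 CPM in the WT library. Each of the 3 thus had a higher level in ciliated-like than in mature neuron-like nuclei in both libraries.

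Among 13468 other genes with at least 100 UMIs, the 5 whose level followed the members' summed level most closely over 32 class and library profiles were FHAD1, DRC1, LRRIQ1, TTC25 and CCDC173, with Spearman correlations of 0.917, 0.915, 0.898, 0.891 and 0.890. DRC1 is a subunit of the nexin-dynein regulatory complex and TTC25 of the outer arm docking complex. LRRIQ1 had 1173 CPM in ciliated-like, 466 CPM in mature neuron-like and 63.3 CPM in fibroblast-like nuclei of the KO library, and 1290, 479 and 32.9 CPM in the WT library. The profiles share libraries, and these are descriptions of likeness.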

How the data were processed

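Each library's deposited file lists raw UMI counts, whole numbers by gene and barcode that the authors had not normalized. Tissue was frozen, sectioned and ground, and nuclei were captured with 10x Genomics chemistry, per the labels' protocols. Cell Ranger, Seurat 4.0 and R 4.0.2 are named, without roles, in the submitters' processing notes. Not given in the sources used here are aligner, genome build and strand use. Reads of overlapping or antisense genes therefore cannot be told apart from a member's own. Each table was tied to its piglet by its genotype name. There were 6054 barcodes and 16623086 UMIs for KO, and 4715 barcodes and 18731495 UMIs for WT. Of 8256 rows with only an Ensembl identifier 1029 were given a symbol by a table of gene names, among them 17 members (DNAH5, DNAH11, DNAH12 and SPAG16 included).

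From the counts, nuclei with under 200 genes were removed. Scrublet, at its own threshold, marked 1 nucleus of each library and thus failed; instead the top-scored nuclei, 0.8% per 1000 nuclei, were taken out (293 KO, 178 WT). Clustering (scanpy 1.11.5, Leiden, resolution 1, 2000 variable genes, 30 components, 15 neighbours) left out the members, CFTR and mitochondrial genes. Clusters were named with 3 or more of a type's markers from 22 lists. The members, lists and naming rule were chosen with earlier results of these data known. UMIs were summed per class and library. CPM have exact Poisson 95% intervals, shares Clopper-Pearson ones, and log2 ratios exact conditional binomial ones, covering counting error only. A 0 was set to 3 counts for a ratio, as a bound that could not turn its direction. A call is a 2-fold ratio. Nothing was tested across the single libraries. The computation was tested on simulated data. Genes were named by rule: the 3 members with the most UMIs per role, the 5 highest and 5 lowest ciliated over neuron ratios in KO, those 2-fold higher in ciliated-like nuclei in neither library, those higher in neurons in both, and the 5 other genes most alike. Alternatives were other clusterings, doublet, depth and member filters, scalings and a fold of 4. Other members named for a count or list were chosen after their values were seen.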

Additional observations from a re-analysis of the deposited data

Results flagged for a closer look

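Several genes stood lower in KO within ciliated-like nuclei and higher in KO within olfactory neuron-like nuclei, or gave signal in clusters outside the comparisons between classes. With 1 library per genotype the direction within each cell type rests on that library, and none of the differences between the cell types was tested. As log2 ratios of KO over WT, CFAP206 had -0.86 within ciliated-like and 0.41 within neuron-like nuclei, and CFAP92 had -0.55 and 0.41. DNAH5, the outer arm heavy chain, had -0.37 and 0.52, DNAH7 had -0.44 and 0.28, and DNAH10 had -0.39 and 0.54. SPAG6, of the central apparatus, had -0.21 and 0.42. TMEM212 had -0.39 and 4.79, the widest gap of these 7 genes. Its KO level was 56.9 to 140 CPM over the named nonciliated classes (91.4 CPM in glia-like nuclei), 541 CPM in cluster 1 and 351 CPM in cluster 23.

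Clusters 1 and 23, with median depths of 534 and 704 UMIs in KO and of 680 and 762 UMIs in WT, carried no class name because of this low depth. They took no part in the comparisons between classes but are among all nuclei where the libraries are compared as wholes. Cluster 1 held 946 KO nuclei (16.4% of the library) and 41 WT nuclei (0.904%), and met the rule for 5 ciliated markers, FOXJ1, TPPP3, DYNLRB2, ROPN1L and FAM183A, beside 4 of the secretory list. Cluster 23 held 14 KO and 182 WT nuclei. The summed level of the genes was 5638 CPM in cluster 1 and 6581 CPM in cluster 23 of the KO library. In the WT library it was 2304 CPM in cluster 1 and 2426 CPM in cluster 23. Glia-like nuclei, as a class without motile cilia, had 1573 CPM in KO and 1084 CPM in WT.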

How the results depend on the processing

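No paired analysis was possible because there was 1 library per genotype. Of 261 alternative values of the counts, summed ratios and shares, 201 stayed close to the value reported and 60 moved. Of the values of single genes 2563 kept their side of 2-fold, 28 newly passed and 34 no longer passed. Direction was checked only for values reported at 2-fold or more, of which 1 turned round. That was CFAP221, neurons over other nuclei in KO, at -0.71 under separate clustering of the libraries, against 1.03. Over all alternatives, ciliated over neuron counts ran from 28 to 52 members in KO and from 33 to 53 in WT, and neuron over other counts from 22 to 42 and from 31 to 48. Unless a sentence says otherwise, the cause was not tested.

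Below, the log2 ratios of the summed level are given as ciliated over neuron, then neuron over other (1.76 and 2.04 in KO, 2.21 and 2.20 in WT as reported). The ciliated share is the percent of member UMIs in ciliated-like nuclei (52.7 in KO, 7.33 in WT), and detection the percent of neurons with a member UMI (99.3 in KO, 97.9 in WT). With the members among the variable genes they were 1.715 and 2.104 in KO, with a share of 53.54, and the first 2.168 in WT, with a share of 7.615. With each library clustered on its own they were 1.847 and 1.631 in KO with a share of 48.24, and 2.03 and 2.31 in WT with detection of 98.66. At resolution 0.5 the KO share was 53.06, the WT ciliated ratio 2.15 and WT detection 98.66. At resolution 2 the ratios were 1.744 and 1.975 in KO with a share of 52.27, and 2.064 and 2.335 in WT with detection of 98.65. With no nuclei removed as doublets they were 1.614 and 1.969 in KO with a share of 54.03, and 2.058 and 2.03 in WT with a share of 7.038. With at least 1000 UMIs per nucleus they were 1.731 and 2.126 in KO with a share of 54.95, and 2.1 and 2.319 in WT. With only the symbols in the files (48 members, by construction fewer genes) they were 1.523 and 2.167 in KO, with a share of 49.26 and detection of 98.31, and 1.964 and 2.269 in WT, with 6.287 and 96.47. Chosen after seeing the data, leaving macrophage-like nuclei out gave a WT neuron ratio of 2.262, and leaving precursor-like nuclei out gave 2.126 in KO and 2.385 in WT.

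Among the counts, members higher in mature than immature neurons were 16 in WT at resolution 2 and 10 in KO with only the files' symbols. Members lower in KO within ciliated-like nuclei were 1 with the members among the variable genes and 1 with separate clustering, and 4 with size factors. Those higher were 2 with nuclei weighted equally and 0 with only the files' symbols. Those higher within neurons were 4 with separate clustering and 4 at resolution 2. A fold of 4, a stricter call by construction, left 28 in KO and 33 in WT for ciliated over neuron, 22 in KO for neuron over other, 3 in KO and 5 in WT for mature over immature, 10 for KO over WT over all nuclei, 0 higher and 0 lower within ciliated-like nuclei and 3 higher within neurons. The 31 WT ciliated-like nuclei limit every WT ciliated value.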
